A study of Homo sapiens with 8 samples.

Results

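The nuclear genes for mitochondrial ribosomal proteins were followed through histone acetylation profiles of MIA PaCa-2 cells, an established human pancreatic cancer line. Members were all gene names of the H3K9ac peak annotation that begin with MRPL or MRPS followed by a digit. This gave 78 of the 12186 gene names in the 2 H3K9ac lists, 48 with a large-subunit symbol (MRPL) and 30 with a small-subunit symbol (MRPS). Every member therefore has an H3K9ac peak in at least 1 list by the rule itself, and what remains open to measurement is in which list, how strong, where, and whether H3K27ac lies beside it. RefSeq classed 75 members as protein-coding and 3 as pseudogenes (MRPL42P5, MRPL45P2 and MRPS31P5). Of 77 coding MRP genes in RefSeq, 3 were not members under that name, MRPL28, MRPL57 and MRPL58.

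The mitochondrial ribosome translates the few messenger RNAs that the mitochondrial genome encodes, all for subunits of the respiratory chain and the ATP synthase. Its RNAs are transcribed inside the organelle, whereas its proteins are encoded in the nucleus, made in the cytosol and imported. The large subunit forms peptide bonds and the small subunit reads the messenger. Symbols do not always match the structure: MRPS30 and MRPS18A sit in the large subunit, and MRPS36 is now named KGD4 and belongs to the 2-oxoglutarate dehydrogenase complex. H3K9ac and H3K27ac are acetylated forms of histone H3 that mark active promoters, and H3K27ac marks active enhancers as well.

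All cells were seeded in a hyaluronan hydrogel cross-linked with PEGDA and grew into spheroids. The astromal condition had water in place of the collagen component of the gel and was kept in DMEM with 2% serum. The stromal condition had the collagen component (Gelin-S) and received medium with 2% serum that immortalized myofibroblasts, grown out of resected human pancreatic tumours, had conditioned for 48 h. Gel composition and medium therefore changed together and cannot be told apart. Each combination of mark and condition was 1 ChIP library, 4 in all, so no difference between conditions has a replicate check and none is given a p-value. The 4 input libraries were not analysed here.

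There were 7141 peaks in the astromal and 20326 in the stromal list of H3K9ac, and 14489 and 15093 in those of H3K27ac. The H3K9ac libraries had an estimated 3922717 (astromal) and 7569713 (stromal) tags, and the H3K27ac libraries 13453902 and 17190695. A tag is 1 aligned read, and all levels below are the authors' tags per peak scaled to 10000000 tags of the library (normalised tags), summed over the peaks of a gene. Intervals in brackets are exact Clopper-Pearson intervals at 95%. Those of tag ratios cover counting error only. Those of shares treat genes as independent draws, although genes are not replicates of a condition. Neither kind covers the spread between libraries. H3K9ac peaks belong to the gene that the deposited annotation names. An H3K27ac peak was given to a gene when its centre lay within 2 kb of the centre of one of that gene's H3K9ac peaks in either list.

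H3K9ac was listed at most members in both conditions. Of the 78 members, 55 (70.5%, 59.1 to 80.3) were in both H3K9ac lists and 23 (29.5%, 19.7 to 40.9) in the stromal list only. No member was in the astromal list only (interval up to 4.62%). Over all 12186 gene names, 46.8% were in both lists, 52.2% had stromal H3K9ac alone and 0.935% astromal H3K9ac alone. The same shares among protein-coding genes were 48.1%, 51.2% and 0.706%. The median stromal level was 42.3 normalised tags for members and 42.3 for all protein-coding genes. The lower quartile was higher in members, 35.7 against 27.7, and the upper quartiles were 64.7 and 62.1. The part of weakly marked genes in the difference between the shares in both lists was not tested. The genes of the respiratory chain, whose core subunits the mitochondrial ribosome makes, had the same share in both lists (62 of 88, 70.5%), and the cytosolic ribosomal protein genes a similar one (48 of 73, 65.8%).

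**Figure D1:**
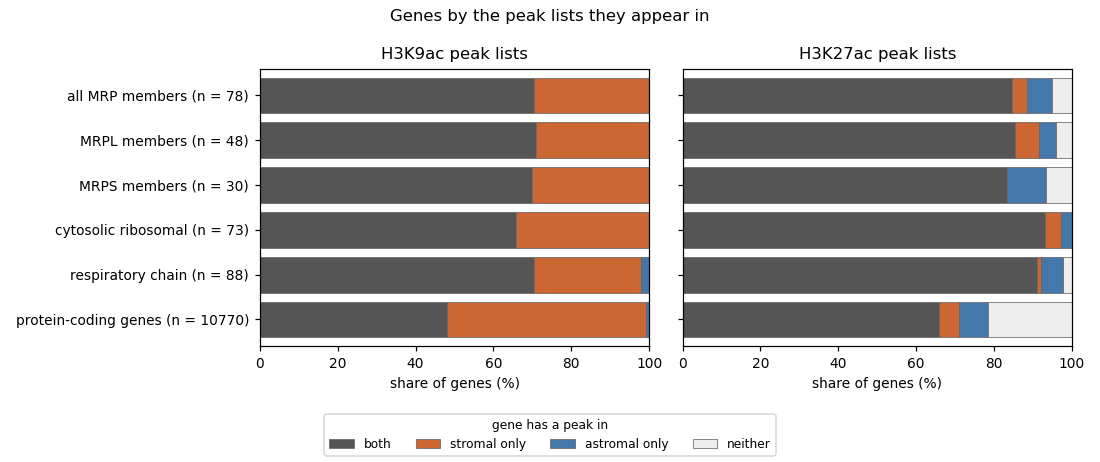
Share of genes (%) by peak list (both, stromal only, astromal only or neither) for H3K9ac (left) and H3K27ac (right). Bars stand for all members, the 2 subunits by symbol, and 3 wider sets. The MRPL and MRPS bars for H3K9ac end at nearly the same place, 70.8% and 70.0% in both lists.

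The 2 subunits did not separate by this measure. Large-subunit symbols were in both H3K9ac lists in 34 of 48 cases (70.8%, 55.9 to 83.0) and small-subunit symbols in 21 of 30 (70.0%, 50.6 to 85.3). The shares in the stromal list only were 29.2% and 30.0%, a difference of -0.833 percentage points with an interval from -23.8 to 20.5. When only peaks of at least 20 normalised tags counted, the shares were 26.2% and 44.8%, a difference of -18.6 points with an interval from -41.7 to 5.63. Either interval still holds differences of over 20 points, so equality of the subunits was not shown.

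Absence from the astromal H3K9ac list has limited weight, as that library was the shallowest. The stromal H3K9ac library had 1.93 times its depth. The median astromal H3K9ac peak rested on 9 tags and the lowest on 5, and 5% of its peaks lay below 17.8 normalised tags, against 13.2 in the stromal list. Stromal-only members, like stromal-only genes in general, were the weaker ones: their median stromal level was 34.3 normalised tags (range 13.2 to 83.2), against 55.5 (25.1 to 145.0) for members in both lists. Over all genes these medians were 30.4 and 55.5. The 2 ranges of members overlapped. The part that depth played in the stromal-only class was not tested.

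The strongest stromal-only member was MRPL49, a large-subunit protein. It had 83.2 normalised tags of H3K9ac (63 tags) in 2 peaks on either side of its start site, and no astromal peak closer than 4625 bp. FAU starts on the opposite strand within 1 kb, so the MRPL49 peaks lie at a promoter region that both genes share. MRPS26, of the small subunit, had 68.7 normalised tags in 3 peaks, and its nearest astromal H3K9ac peak lay 113330 bp away. MRPS6 had 51.5, MRPL41 41.0 and MRPS18A 41.0, of which 11.9 lay 20179 bp from the MRPS18A start. MRPL49, MRPS26 and MRPS6 were the 3 stromal-only members above 50 normalised tags. At the other end, MRPS34 had 13.2 normalised tags and MRPL13 14.5, which is 10 and 11 tags.

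Some stromal-only members had astromal H3K9ac nearby under another gene's name, though not overlapping their own peak. The annotation gives each peak to 1 gene, so a peak between 2 neighbouring start sites counts for only one of them. Of the 23 stromal-only members, 6 had an astromal H3K9ac peak within 2 kb that was annotated to a neighbour. MRPL9 had one 411 bp from its stromal peak under OAZ3, with 22.9 normalised tags. MRPS18C had one at 612 bp under HELQ (17.8) and MRPL46 one at 708 bp under MRPS11 (28.0). For MRPL13, MRPL36 and MRPS18B the neighbours were MTBP (20.4), NDUFS6 (25.5) and PPP1R10 (38.2), at 1100 to 1175 bp. The other 17 stromal-only members had no astromal H3K9ac peak within 2 kb. The same share over all stromal-only genes was not computed, so these counts describe the members alone.

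H3K27ac gave a more even picture of the 2 conditions. Near 66 of the 78 members (84.6%, 74.7 to 91.8) it was listed in both libraries, against 65.4% of all genes named in the H3K9ac lists. Near 3 members (3.85%; all genes 5.20%) it was in the stromal list only, near 5 (6.41%; all genes 7.64%) in the astromal list only, and near 4 (5.13%; all genes 21.8%) in neither. By subunit, 41 of 48 large-subunit and 25 of 30 small-subunit members had it in both lists (85.4% and 83.3%). Respiratory chain genes reached 90.9% and cytosolic ribosomal protein genes 93.2%.

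Members with H3K27ac in 1 list only were mostly weak. In the stromal list only were MRPL41 (14.54 normalised tags), MRPL37 (14.5) and MRPL14 (6.40), all of the large subunit. The MRPL14 peak lay 738 bp from an intergenic H3K9ac peak credited to that gene, 53565 bp from its start. From the stromal H3K9ac peak at the MRPL14 promoter the nearest H3K27ac peak was 52636 bp away. In the astromal list only, MRPS31 stood highest with 20.09 normalised tags in 2 peaks, and its nearest stromal H3K27ac peak lay 17632 bp away. MRPS6 had 8.92 and MRPL10 8.18, and MRPL16 and MRPS25 had 7.43 each, which is 10 tags. In that list 5% of peaks lay below 7.43, so 4 of these 5 lay at or close to the weakest peaks listed.

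No H3K27ac lay within 2 kb of MRPL20, MRPS18A, MRPS18B or MRPL42P5 in either library. MRPL20 is the exception by strength. It had 2 H3K9ac peaks in each list, 43.3 normalised tags in the astromal and 60.7 in the stromal library, while the nearest H3K27ac peaks were 6925 bp (astromal) and 6820 bp (stromal) away. MRPS18A (41.0), MRPS18B (39.6) and the pseudogene MRPL42P5 (38.3) had stromal H3K9ac only. Both MRPL42P5 peaks were intergenic, 20484 and 21036 bp from its start. Of the MRPS18A signal, 29.1 normalised tags lay near the start and 11.9 lay 20179 bp away. MRPS18A and MRPS18B are paralogues, and the third paralogue, MRPS18C, had H3K27ac in both lists (24.5 astromal and 18.64 stromal normalised tags).

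In the stromal libraries the 2 marks coincided more often at members than over all genes, as in the respiratory chain and cytosolic ribosomal sets. The margin was smaller in the astromal libraries, where for members it rests on 55 genes and was not tested. In the astromal libraries 52 of the 55 members with H3K9ac also had H3K27ac (94.5%), against 90.3% of all genes with H3K9ac. In the stromal libraries the numbers were 69 of 78 (88.5%) against 70.5%. The respiratory chain had 98.4% and 91.9% in the 2 conditions, and cytosolic ribosomal protein genes had 97.9% and 97.3%. All 4 lists held 48 of the 78 members (61.5%), 29 of the large and 19 of the small subunit, against 39.8% of all genes, 68.2% of respiratory chain genes and 61.6% of cytosolic ribosomal protein genes. Of the 23 members without astromal H3K9ac, 19 (82.6%) did have astromal H3K27ac, against 57.2% of all genes in the same position, 91.7% in the respiratory chain and 92.0% in the cytosolic ribosomal set. Their astromal H3K27ac was lower than that of the members in both H3K9ac lists, with medians of 17.1 and 27.5 normalised tags.

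Within a condition, stronger H3K9ac went with stronger H3K27ac to a moderate degree. Across the members with both marks Spearman's rho was 0.53 in the astromal (n = 52) and 0.31 in the stromal libraries (n = 69). Over all genes it was 0.41 and 0.45. These are correlations across genes that share 1 library per mark, and the H3K27ac values depend on where H3K9ac peaks lie, so they are given as a description.

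The highest H3K9ac levels belonged to a handful of members. MRPL48, a large-subunit protein, led the stromal list with 145.3 normalised tags in 4 peaks and had 43.3 in 2 peaks in the astromal list. Its H3K27ac was 100.3 astromal and 104.7 stromal, each in 4 peaks and each the highest of all members. Among all genes of their libraries these 2 H3K27ac levels ranked at the percentiles 99.1 and 99.5. MRPL48 peaks lay at 2 places, around the start site on chromosome 11 (hg19; for example 73498518 to 73498728 in the promoter) and at an intergenic site at -8489 bp (73490323 to 73490533), and all 4 libraries had a peak at both. The upstream site is credited to MRPL48 as the nearest start site, and nothing in the lists ties it to that gene.

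Other strongly marked members followed. MRPL51 had 56.1 astromal and 116.2 stromal normalised tags of H3K9ac, and MRPL33 had 33.1 and 99.1. MRPL33 was also second to MRPL48 in stromal H3K27ac (57.2 astromal and 67.6 stromal), whereas MRPL51 had 28.2 and 29.1 there. Part of the MRPL33 signal lay far from its start. Stromal H3K9ac peaks of 11.9 normalised tags each were 28162 and 37664 bp from it. The stromal H3K27ac peaks near the start had 16.9 and 18.0. Those of 10.5 to 11.1, and astromal ones of 11.1, lay by the distant H3K9ac peaks. MRPS24 (15.3 and 89.8) and MRPL55 (28.0 and 85.9) completed the 5 highest in the stromal list.

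The astromal list had a different top. Its 5 highest were MRPS35 with 66.3 normalised tags, MRPS27 and MRPS30 with 63.7 each, MRPL51 with 56.1 and MRPL54 with 45.9. Of the MRPS27 level, 43.3 came from an intronic peak 12192 bp inside the gene and 20.4 from its promoter peak. In the stromal list the intronic and promoter peaks of MRPS27 had 33.0 and 31.7. MRPL51 alone was in the top 5 of both lists. The stromal levels of MRPS35, MRPS27 and MRPS30 were 68.7, 64.7 and 66.1, nearly the same as their astromal ones, while the median member in both lists had a 2.02-fold higher stromal level. In H3K27ac, MRPL54 (72.2 astromal and 67.5 stromal) and MRPS27 (45.4 in each) stood near the top in both libraries, as did MRPS30 in the astromal (41.7) and MRPL30 in the stromal one (39.0). Of the MRPS27 H3K27ac, 17.1 (astromal) and 16.9 (stromal) lay at the intronic site.

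**Figure D2:**
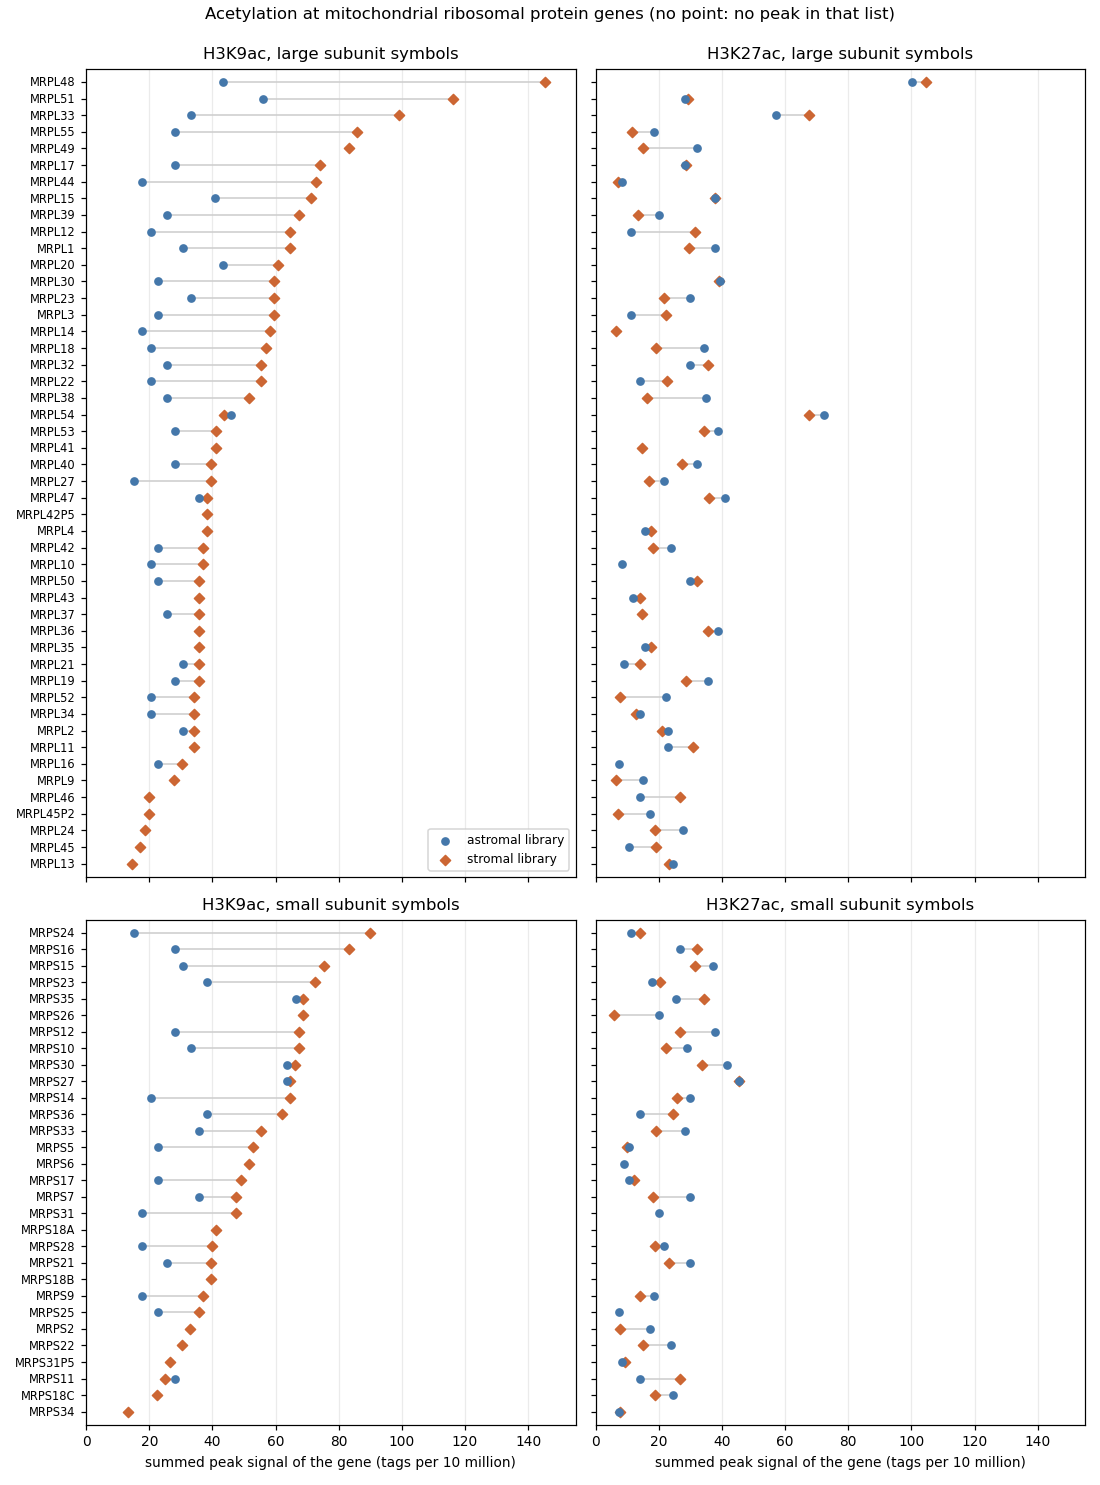
Summed peak signal of each member in tags per 10000000 for H3K9ac (left) and H3K27ac (right), large-subunit symbols above and small-subunit symbols below, ordered by stromal H3K9ac. Circles are the astromal and diamonds the stromal library, and a missing point means no listed peak. Stromal H3K9ac lies to the right of astromal at 53 of the 55 members in both lists, whereas the H3K27ac points of the 2 conditions lie close together.

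Small-subunit members carried somewhat more stromal H3K9ac than large-subunit ones. Their median was 50.2 normalised tags (range 13.2 to 89.8) against 39.6 (14.5 to 145.0), and the ranges overlapped almost fully. The astromal medians were 28.0 and 25.5 among members with a peak. For H3K27ac the order was the other way round, 20.8 against 23.8 in the astromal and 19.2 against 21.2 in the stromal library. None of these differences between subunits was large beside the spread of the genes.

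H3K9ac at shared members was about 2-fold higher in the stromal library, which was the shift of the whole list. The median ratio, stromal over astromal, was 2.02 for the 55 members and 1.98 for all 5706 genes in both lists. These ratios compare sums over listed peaks, and the stromal list held more peaks. All members together, stromal-only ones included, had 63 astromal and 117 stromal H3K9ac peaks. The part of peak number in the 2-fold shift was not tested. A total of 53 members had more normalised tags in the stromal and 2 in the astromal library. To compare members with the rest, log2 ratios were centred on the median of all shared genes, which was 0.99 for H3K9ac and -0.17 for H3K27ac. The centred median of members was then 0.03 for H3K9ac, and the middle 50% ran from -0.46 to 0.40, against -0.42 to 0.48 for all genes. Large-subunit members had a centred median of -0.05 and small-subunit members 0.04.

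H3K27ac showed no overall shift of members either. At the 66 members in both lists the centred median was 0.03, with the middle 50% from -0.24 to 0.36 against -0.36 to 0.36 for all 7964 genes. The medians by subunit were 0.05 (large, n = 41) and -0.05 (small, n = 25). Without centring, 26 members were higher and 40 lower in the stromal library.

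**Figure D3:**
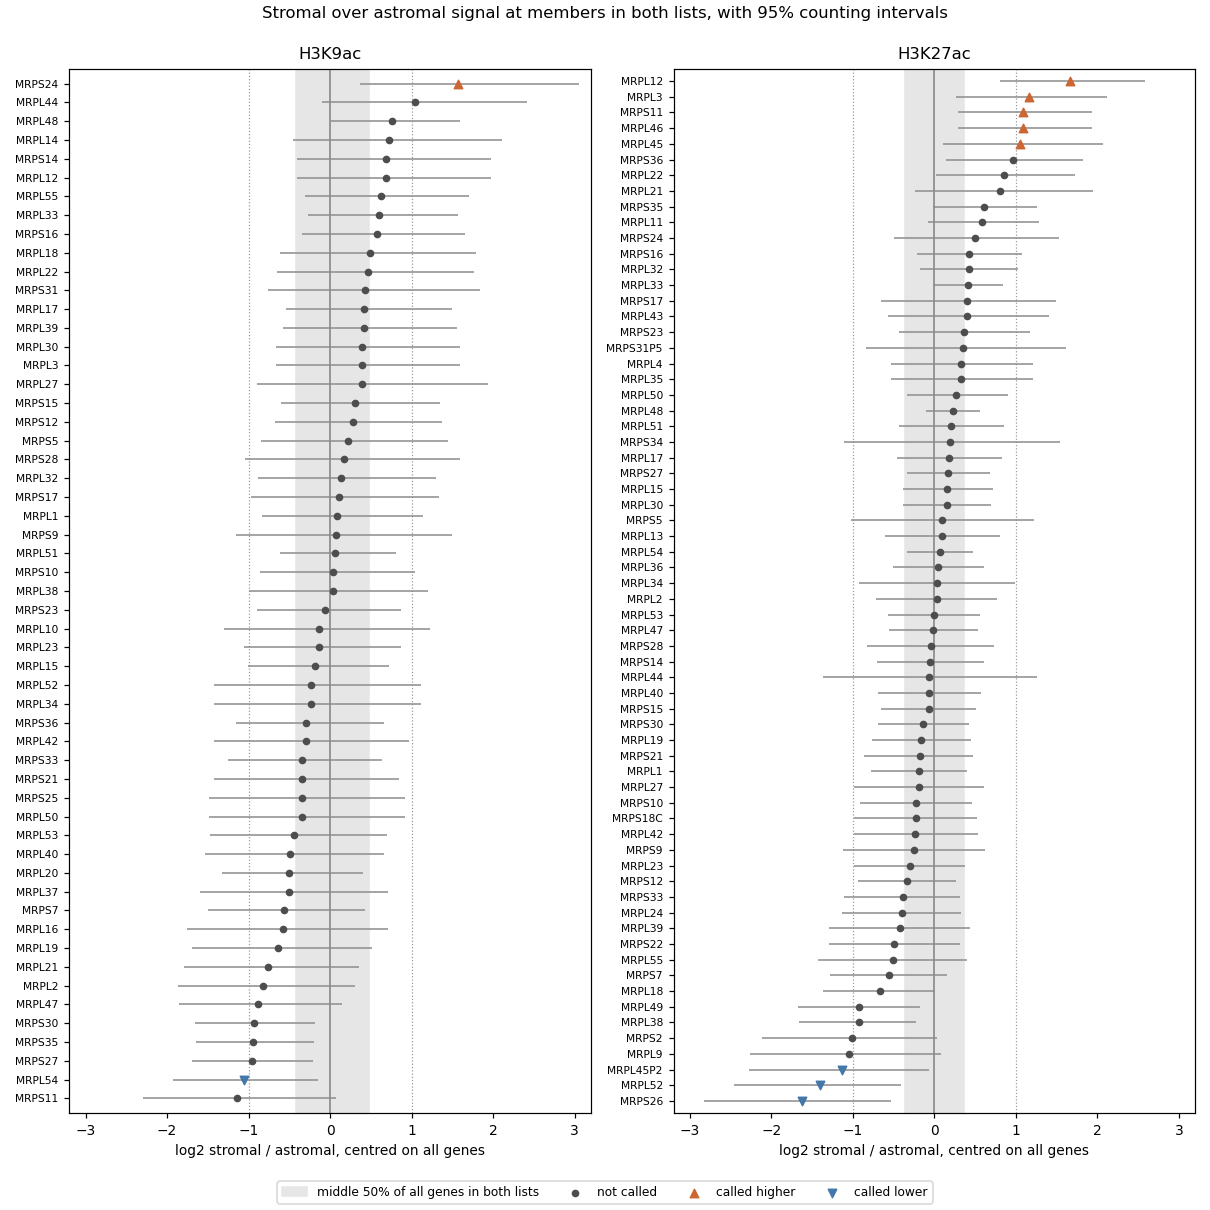
Log2 ratio of stromal over astromal signal for each member in both lists of a mark, centred on all genes in both lists, with the 95% counting interval of the tag ratio. Grey bands hold the middle 50% of all genes and dotted lines mark a 2-fold difference. Most points lie inside or near the band, and the intervals of 49 of 55 members (H3K9ac) and 54 of 66 (H3K27ac) include 0.

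Calls of higher or lower needed a centred difference of 2-fold or more and a counting interval without 0. For H3K9ac, 1 member was called higher and 1 lower, 3.64% of the 55, while 9.52% of all shared genes were called (5.96% higher and 3.56% lower). For H3K27ac, 5 were called higher and 3 lower, 12.1% of the 66, beside 11.7% of all shared genes (5.47% higher and 6.22% lower). The share called in H3K27ac was close to the background, and the share called in H3K9ac rests on 2 genes.

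Most of these calls went with the number of peaks listed for a gene. The 5 members called higher in H3K27ac each had more peaks in the stromal than in the astromal list, and the 3 called lower each had fewer. MRPS24, higher in H3K9ac, had 3 stromal peaks and 1 astromal, and MRPL54, lower in H3K9ac, had 1 in each. Over all genes 97.2% of higher and 93.5% of lower H3K27ac calls had this property. When only the highest peak of each gene was compared, none of the 10 calls in members held, and among all shared genes 0.824% (H3K9ac) and 1.33% (H3K27ac) were called. Single members are therefore described below with the peaks behind their values.

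MRPS24, of the small subunit, was the member called higher in H3K9ac. It had 15.3 normalised tags (6 tags) in 1 astromal peak and 89.8 (68 tags) in 3 stromal peaks, a centred log2 ratio of 1.57 (0.37 to 3.06). The astromal peak was the weakest of all members in that list, shared with MRPL27. Around the start site on chromosome 7 the astromal peak covered 43908648 to 43908848, and the stromal peaks 43908905 to 43909115 and 43909312 to 43909522. The third stromal peak, of 15.9 normalised tags, was intergenic and 30614 bp from the start. The call held with peaks within 1 kb of the start only and without centring. It did not hold with the highest peak (0.70, -0.58 to 2.26), and filters on low values left the gene out. H3K27ac of MRPS24 was 11.1 and 14.0 normalised tags, a centred ratio of 0.50 (-0.50 to 1.53).

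MRPL54, of the large subunit, was called lower in H3K9ac relative to the general shift. Its level was 45.9 normalised tags (18 tags) in the astromal and 43.6 (33 tags) in the stromal library, 1 peak each, at almost the same place in the first exon region (chromosome 19, 3762645 to 3762845 and 3762686 to 3762896). The centred ratio was -1.06 (-1.93 to -0.15), and without centring it was -0.07, so MRPL54 kept its level while most shared genes had a higher one. The call was lost in 5 of the 6 alternatives run. MRPS35, MRPS27 and MRPS30 lay just short of the threshold at -0.94, -0.96 and -0.93, with intervals that left out 0. With the highest peak alone MRPS35 turned to 0.08 and MRPS30 to 0.33, each having 2 astromal peaks and 1 stromal, while MRPS27, with 2 in each, came to -1.06 and was called. In each list the highest MRPS27 peak was the intronic one described above, and with peaks within 1 kb of the start MRPS27 was at -0.25. MRPS11 had the lowest ratio of all, -1.14 (-2.29 to 0.07), with 28.0 astromal and 25.1 stromal normalised tags. Among members with at least 10 tags in each list the highest uncalled ratios were those of MRPL48 (0.76, 0.01 to 1.59), MRPL55 (0.63) and MRPL33 (0.60). In every one of these the stromal list held more peaks.

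MRPL12 had the highest H3K27ac ratio. The protein sits in the stalk of the large subunit, where translation factors dock, and has been described to bind the mitochondrial RNA polymerase. It had 11.1 normalised tags (15 tags) in 1 astromal peak and 31.41 (54 tags) in 4 stromal peaks of 6.98 to 9.89 each. The centred ratio was 1.67 (0.81 to 2.59). The single astromal peak and its stromal counterpart on chromosome 17 (79670151 to 79670347 and 79670144 to 79670318) had 11.1 and 9.89 normalised tags, and the ratio of the highest peaks was 0.03. The difference lay in the 3 further stromal peaks along the locus. H3K9ac of MRPL12 went from 20.4 in 1 peak to 64.7 in 2, a centred ratio of 0.68 (-0.41 to 1.97), not called.

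MRPL3, which lies close to the catalytic centre of the large subunit, had 11.1 normalised tags of H3K27ac in 1 astromal peak and 22.11 in 2 stromal peaks (1.16, 0.26 to 2.12). MRPL45, a protein near the exit of the peptide tunnel, had 10.4 in 1 peak and 19.16 in 2 (1.05, 0.11 to 2.07). With H3K27ac peaks of at least 8-fold over input only, the MRPL45 ratio turned to -0.29. Its pseudogene MRPL45P2 was called lower, with 17.09 normalised tags in 2 astromal peaks and 6.98 in 1 stromal peak (-1.13, -2.27 to -0.06), and turned to 0.08 in the same alternative. The gene and its pseudogene are similar in sequence, so tags could be split between them and both values are uncertain.

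MRPL46 and MRPS11 share a promoter and also the same H3K27ac peaks, so they are 1 observation. Their start sites face away from each other on chromosome 15. One astromal H3K27ac peak lay there (89010717 to 89010913, 14.1 normalised tags), and 2 stromal ones (89010712 to 89010886 with 19.8 and 89010311 to 89010485 with 6.98). The summed levels were 14.1 and 26.78, a centred ratio of 1.09 (0.29 to 1.94). H3K9ac around the same promoter was split by the annotation: MRPS11 had 28.0 astromal and 25.1 stromal normalised tags, and MRPL46 had 19.8 in the stromal list alone. No other pair of members shared a promoter in this way.

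MRPS26 had the lowest H3K27ac ratio, beside H3K9ac in the stromal list alone. Its H3K27ac was 20.02 normalised tags (27 tags) in 2 astromal peaks and 5.82 (10 tags) in 1 stromal peak, a centred ratio of -1.62 (-2.83 to -0.53). Its H3K9ac, as given above, was 68.7 normalised tags in 3 stromal peaks on chromosome 20 (the strongest from 3026050 to 3026260). MRPL49 had the same arrangement in weaker form, stromal-only H3K9ac of 83.2 beside H3K27ac of 32.0 astromal and 15.1 stromal (-0.92, -1.67 to -0.18, not called). MRPL52 had 22.32 normalised tags of H3K27ac in 2 astromal peaks and 7.56 in 1 stromal peak (-1.40, -2.46 to -0.41), while its H3K9ac was 20.4 and 34.3 (-0.24, -1.42 to 1.12). With peaks of at least 8-fold over input the H3K27ac ratio of MRPL52 was -0.65 (-1.80 to 0.46), no longer called.

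The 2 marks did not shift together from member to member. In the 48 members in all 4 lists, both centred ratios were above 0 in 13 and both below in 11, and they differed in sign in 24. Spearman's rho between the ratios was 0.05, and over all 4844 such genes it was 0.02. As both ratios carry large counting errors, with a median interval 2.19 wide in H3K9ac and 1.48 in H3K27ac on the log2 scale, a weak relation would not have been detectable.

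H3K9ac at members sat just inside the gene. Of the astromal H3K9ac peaks of members, 60 of 63 had their centre within 1 kb of the annotated start site, and of the stromal ones 105 of 117 (95.2% and 89.7%, against 87.9% and 79.2% of peaks of all protein-coding genes). Of these promoter peaks 81.7% (astromal) and 71.4% (stromal) lay downstream of the start, against 68.1% and 64.4% for all protein-coding genes. Between 50 and 550 bp downstream lay 78.3% and 63.8% (all protein-coding genes 54.8% and 49.6%). None of the astromal and 1 of the stromal peaks of members had its centre within 50 bp of the start.

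The stromal list held more promoter H3K9ac peaks of members on both sides of the start. Upstream there were 11 astromal and 30 stromal peaks, and downstream 49 and 75. For all protein-coding genes the numbers were 1807 and 5143 upstream and 3867 and 9300 downstream. Of 54 members with astromal promoter H3K9ac, 43 had it downstream only, 6 upstream only and 5 on both sides. In the stromal list the numbers were 48, 6 and 23 of 77. The split by side was not computed per gene for all genes. H3K27ac was more even about the start, with 61.8% of astromal and 56.5% of stromal promoter peaks downstream (all protein-coding genes 53.5% and 50.9%). The H3K27ac positions covered only the 67 members with a known strand, whereas the H3K9ac positions were taken from all members. The stromal H3K9ac library was also the deeper of the pair, and the part of depth in the number of members marked on both sides was not tested.

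**Figure D4:**
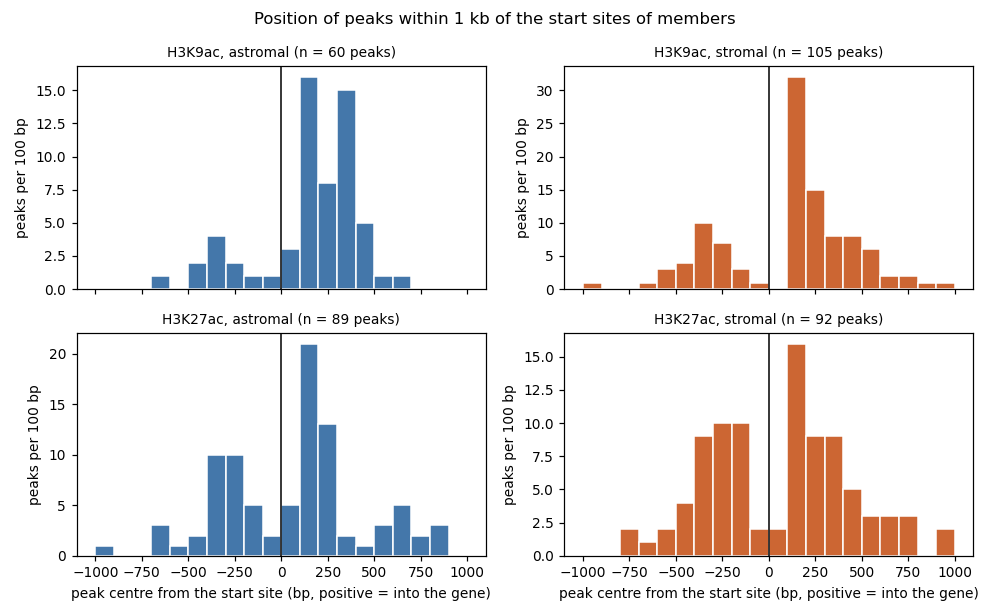
Distance in bp from the start site of a member to the centre of each peak within 1 kb, in bins of 100 bp, for the 4 libraries. Positive values lie inside the gene. The H3K27ac panels cover only the 67 members with a known strand. H3K9ac peaks crowd the start of the gene body (49 of 60 astromal and 75 of 105 stromal peaks are downstream), and H3K27ac peaks lie on both sides with few at the start itself.

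Most astromal H3K9ac sites of members were found again in the stromal list, whereas most stromal ones were not in the astromal list. Of the astromal H3K9ac peaks of members 51 of 63 (81.0%) overlapped a stromal one by at least 1 bp, against 75.8% for the whole list. From the stromal side the shares were 43.6% of the peaks of members and 26.6% of the whole list. For H3K27ac, 78 peaks overlapped, 70.9% of the 110 astromal and 65.5% of the 119 stromal peaks of members (whole lists 60.8% and 58.4%). Median fold over input, a value given by the authors, was 28.6 for astromal and 17.4 for stromal H3K27ac peaks of members, beside 25.6 and 18.8 for the whole lists.

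Promoter sequences were available for 67 members, from RefSeq on build GRCh38.p14, as 250 bases before and 50 after the first listed start site. Those of MRPL10, MRPL13, MRPL15, MRPL2, MRPL21, MRPL23, MRPL35, MRPL42P5, MRPL45P2, MRPS28 and MRPS31P5 were not used here. In all, 6 motifs were searched on both strands as exact letters: AAGATGG (YY1), CCGGAAG (ETS factors, among them GABP), TGCGCA (the core of the NRF1 site), CACGTG (E-box, bound by MYC), GGGCGG (GC box) and CCAAT (bound by NF-Y). These factors are known regulators of nuclear genes for mitochondrial proteins or common promoter elements. No motif contains another. A match says only that these letters are present.

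Of the 6 motifs, the YY1 and ETS letters stood furthest above the background in promoters of members. AAGATGG was in 23 of 67 (34.3%), against 8.04% of promoters of protein-coding genes with H3K9ac and 6.06% of all promoters in the table. CCGGAAG was in 27 (40.3%), against 20.7% and 10.7%. Both were also above these shares in the other 2 sets, with YY1 letters in 18 of 74 promoters of the respiratory chain (24.3%) and 8 of 61 of cytosolic ribosomal protein genes (13.1%). ETS letters were in 20 of the 74 and 21 of the 61. At least 1 of them was in 41 (61.2%, against 26.8% and 15.9%), and 9 held both. TGCGCA was in 13 (19.4%, against 14.3% and 8.42%), and CACGTG in 7 (10.4%, against 10.6% and 7.43%). GC boxes were in 61.2% and CCAAT in 29.9%, against 72.0% and 36.8% of H3K9ac genes (all promoters 44.6% and 35.7%). The 2 subunits had similar shares, 35.9% (large) and 32.1% (small) for YY1 and 38.5% and 42.9% for ETS letters. Median GC content was 60.0% in members and 65.7% in the promoters of protein-coding genes with H3K9ac.

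**Figure D5:**
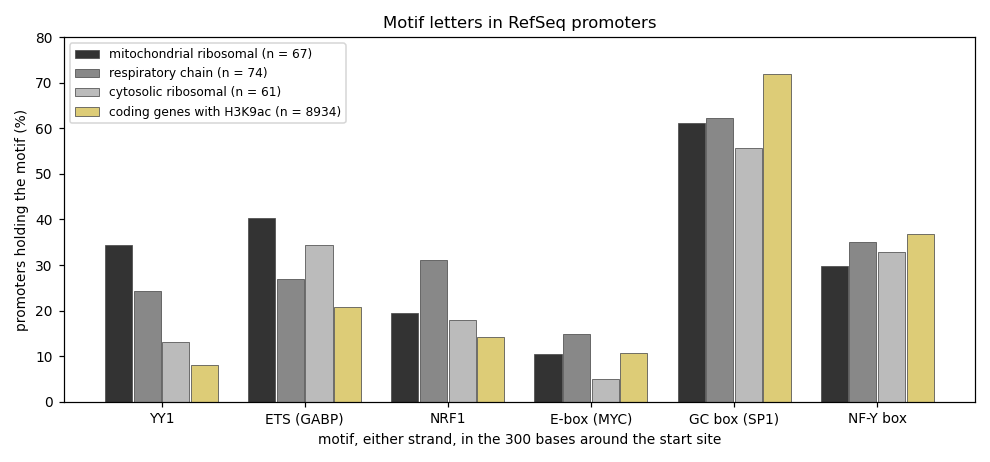
Share of promoters (%) that hold each motif on either strand within 300 bases around the start site, for members, respiratory chain genes, cytosolic ribosomal protein genes and all protein-coding genes with H3K9ac. The YY1 bar is 34.3% for members and 8.04% for all coding genes with H3K9ac, and the NRF1 bar is tallest in the respiratory chain set.

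YY1 letters in members lay mostly just after the start and in one direction. Of 24 matches 16 began after the start site and 20 read forward with the gene, and the median first base was position 10, counting from 1 at the first transcribed base. Protein-coding genes with H3K9ac had 412 of 767 matches after the start (53.7%, against 66.7% in members) and 70.1% reading forward (83.3% in members). With only the 250 bases before the start, the number of members with the letters fell to 7. AAGATGG contains ATG, the letters of a start codon. Whether the matches after the start site overlap the beginning of the coding sequence was not tested. The windows below are 30 bases around the match in members named above, read in the direction of the gene, with the YY1 letters in capitals. They are the members named so far with the letters after the start, and are shown because the letters recur within a short stretch in genes of both subunits.
MRPS24: tccgcttggcccAAGATGGcggcctccgtg
MRPL51: tgggtaaggcccAAGATGGctgtcttcgcc
MRPL46: gtgggagaacgaAAGATGGcggcgcccgta
MRPL45: ctttgcgggaacAAGATGGcagcccccata
MRPL20: tccgacccgggcAAGATGGcagcggcgctg
MRPS27: ttggtacgctccAAGATGGctgcctccata
MRPS30: gaatcgcgggcaAAGATGGcggcggccagg
MRPS18A: ggtaggtttttgAAGATGGcggccctcaag
MRPS18B: tgggcgtacgtcAAGATGGcggcgtctgta
In these 9 promoters the match began between position 9 (MRPL46) and position 24 (MRPS18B). MRPL36, MRPL49 and MRPL52, also named above, had the letters before the start instead, MRPL36 in reverse at -34, MRPL49 at -68 and MRPL52 in 2 copies, at -98 and -64.

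ETS letters lay before the start. Of 36 matches in members 21 (58.3%) began 1 to 60 bases upstream, against 42.8% of those in protein-coding genes with H3K9ac, and they read in either direction (17 forward). The 4 upstream regions below, 250 bases each and 5′ to 3′ with the gene, belong to the 2 members called in H3K9ac, MRPS24 and MRPL54, and to those with the highest and the lowest H3K27ac ratio, MRPL12 and MRPS26. Capitals mark the ETS letters in MRPL54 and MRPS26 and the NRF1 core in MRPL12, and MRPS24 has neither, nor YY1 letters, in these bases.
MRPS24: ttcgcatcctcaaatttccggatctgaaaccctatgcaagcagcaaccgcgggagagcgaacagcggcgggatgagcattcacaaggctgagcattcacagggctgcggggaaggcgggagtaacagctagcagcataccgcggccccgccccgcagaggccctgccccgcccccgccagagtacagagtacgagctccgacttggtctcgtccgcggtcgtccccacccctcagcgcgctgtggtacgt
MRPL54: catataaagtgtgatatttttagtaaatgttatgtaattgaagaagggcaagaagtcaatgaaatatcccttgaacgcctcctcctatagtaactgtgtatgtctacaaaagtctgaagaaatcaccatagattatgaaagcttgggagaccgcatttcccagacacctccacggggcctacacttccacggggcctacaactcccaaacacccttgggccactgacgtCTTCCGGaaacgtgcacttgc
MRPL12: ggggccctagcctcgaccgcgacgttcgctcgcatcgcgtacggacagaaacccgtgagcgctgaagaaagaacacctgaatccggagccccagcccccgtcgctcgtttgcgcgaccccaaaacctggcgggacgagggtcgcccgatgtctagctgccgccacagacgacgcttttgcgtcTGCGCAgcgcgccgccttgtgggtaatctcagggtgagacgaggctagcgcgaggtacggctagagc
MRPS26: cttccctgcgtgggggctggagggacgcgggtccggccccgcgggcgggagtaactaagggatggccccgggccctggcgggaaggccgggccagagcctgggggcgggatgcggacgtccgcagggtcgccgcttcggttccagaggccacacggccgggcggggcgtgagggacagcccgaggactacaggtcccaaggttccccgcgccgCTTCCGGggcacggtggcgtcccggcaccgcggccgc
On GRCh38.p14 these are chr7:43869518-43869767 on the minus strand, chr19:3762432-3762681, chr17:81703117-81703366 and chr20:3045802-3046051, the last 3 on the plus strand. In both ETS cases the letters stand on the strand opposite to the gene, within the last 60 bases before the start.

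Members with and without YY1 or ETS letters were in both H3K9ac lists to a similar extent. Their median H3K27ac was higher with the letters in both libraries, and the same held for the NRF1 core. With YY1 letters 16 of 23 members (69.6%) were in both H3K9ac lists, and without them 33 of 44 (75.0%). For ETS letters the numbers were 21 of 27 (77.8%) and 28 of 40 (70.0%). Median stromal H3K9ac was 51.5 and 48.2 normalised tags with and without YY1 letters. H3K27ac was 29.4 and 20.1 in the astromal and 26.8 and 18.9 in the stromal library. For ETS letters it was 28.2 and 19.4 astromal and 22.1 and 19.2 stromal. For the NRF1 core it was 26.8 and 23.0 astromal and 27.4 and 18.6 stromal. With that core 8 of 13 members (61.5%) were in both H3K9ac lists, and without it 41 of 54 (75.9%). No test of these differences was run. The median centred ratios of stromal over astromal signal were near 0 with and without YY1 or ETS letters, from -0.10 to 0.11 for YY1. With the NRF1 core they were 0.28 (H3K9ac) and 0.18 (H3K27ac), and without it 0.04 and -0.03.

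Many members share their promoter region with another gene. A coding partner that starts on the opposite strand and reads away, within 1 kb, was found for 19 of 67 members (28.4%), against 15.0% of protein-coding genes with H3K9ac and 29.7% of respiratory chain genes. MRPL46 and MRPS11 were each other's partner. MRPL51 faced NCAPD2, a condensin subunit, MRPL18 faced TCP1 of the cytosolic chaperonin, MRPL32 the proteasome gene PSMA2, and MRPS12 faced SARS2, the mitochondrial seryl-tRNA synthetase. Members with a partner were in both H3K9ac lists in 14 of 19 cases (73.7%) and those without in 35 of 48 (72.9%). Their stromal H3K9ac was lower (medians 43.6 and 51.5 normalised tags), and their H3K27ac was higher in both libraries (29.8 against 20.1 astromal and 26.8 against 19.8 stromal). A peak at such a promoter is annotated to one gene only in H3K9ac, whereas H3K27ac was counted for either neighbour with an H3K9ac peak in reach.

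Other genes of mitochondrial translation were described from 3 lists. Of 6 mitochondrial ribosomal proteins without an MRP symbol 5 were in the H3K9ac lists and DAP3 was not. CHCHD1 was in both lists (35.7 astromal and 71.4 stromal normalised tags), and AURKAIP1, GADD45GIP1, ICT1 (the older symbol of MRPL58) and PTCD3 were in the stromal list only, with 34.3 to 66.0. All 5 had H3K27ac in both lists and none was called in that mark, and CHCHD1, the one with an H3K9ac ratio, was not called in H3K9ac.

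All 16 listed factors of mitochondrial initiation, elongation, release, membrane insertion and messenger handling had H3K9ac, 8 of them in both conditions and 8 under the stromal condition alone, against 52.2% of all genes that were stromal-only. Of 8 with an H3K9ac ratio 1 was called higher (12.5%, against 9.52% of all genes called), and of 14 with an H3K27ac ratio 2 were called higher and 3 lower (35.7%, against 11.7%). Each of these calls rested on 1 to 3 peaks per library, with more peaks in the library where the level was higher, and none held with the highest peak alone. MTIF3, an initiation factor, was called in both marks and in opposite directions. Its H3K9ac was 17.8 astromal and 79.3 stromal normalised tags (1.17, 0.03 to 2.54), and its H3K27ac 37.98 and 8.14 (-2.06, -3.02 to -1.18). TUFM, the elongation factor that delivers aminoacyl-tRNA, had lower H3K27ac (26.0 and 7.56; -1.62), as did SLIRP, which stabilises mitochondrial messengers (20.82 and 7.56; -1.29). MTRF1L, a release factor (9.66 and 23.85; 1.47), and the GTPase gene GUF1 (11.1 and 23.29; 1.24) were called higher.

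Of 26 listed assembly factors 22 had H3K9ac, 12 of them in both conditions and 10 under the stromal condition alone (45.5%, against 52.2% of all genes). Of 12 with an H3K9ac ratio 1 was called lower and none higher (8.33%, against 9.52%), and of 19 with an H3K27ac ratio 1 was lower and none higher (5.26%, against 11.7%). Both had 2 astromal peaks and 1 stromal, and with the highest peak alone their ratios were 0.02 (ERAL1) and -0.15 (RNMTL1). The member of this list lower in H3K9ac was ERAL1, a chaperone of the small-subunit ribosomal RNA (38.2 astromal and 33.0 stromal normalised tags; -1.20, -2.18 to -0.17). The one lower in H3K27ac was RNMTL1, a methyltransferase of the large-subunit ribosomal RNA (20.76 and 8.73; -1.08). Median centred ratios were 0.27 (H3K9ac) and 0.05 (H3K27ac) in assembly factors and -0.11 and 0.08 in translation factors, beside 0.03 and 0.03 in members.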

How the data were processed

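MIA PaCa-2 spheroids gave 4 ChIP libraries with peak lists, 1 per mark and condition. The submitters' processing notes name CASAVA 1.8.2, Bowtie, HOMER and build hg19. The H3K27ac lists came from HOMER findPeaks at an FDR of 0.001, at least 4-fold over input and over the local 10000 bp, per the file headers. How H3K9ac peaks were called is not given in the sources used here, and the H3K9ac lists hold HOMER annotation, per the file headers. The deposited signal is tags per peak normalised to 10000000 tags. The unit of the H3K9ac signal was inferred from its even steps: each fell less than 0.1 tag from a whole count, which gave tag counts and an estimated depth. For H3K27ac the deposited tag count of the astromal list matched the count rebuilt from the signal exactly in 94.0% of peaks. The deposited fold over input (a ratio) and findPeaks score served only as filter and alternative level.

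Levels were summed per gene name. A log2 ratio (stromal over astromal) was formed for genes in both lists, centred on all of them, with an exact binomial interval of the tag ratio; calls needed 2-fold and an interval without 0. Code was checked on simulated counts. Overlaps used bedtools 2.31.1, other steps Python 3.11.15 with pandas 2.3.3 and scipy 1.17.1. Promoters and gene types came from RefSeq tables (GRCh38.p14), matched by gene identifier for 78 of 78 members; no coordinate was moved between builds.

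Members, lists, motifs and tests were chosen with earlier results of these data known. Members named are the 5 highest of each list of either mark, the 5 strongest in the stromal H3K9ac list only, all called, the 3 highest and lowest ratios with at least 10 tags in each list, the 3 strongest with H3K27ac in 1 list only per list, the 5 strongest without H3K27ac (4 existed) and those sharing a promoter, plus called genes of the 3 lists of mitochondrial translation. Further members named for neighbouring peaks, for sequence or for weak values were chosen after their values were seen. Alternatives covered windows, filters, centring and the level used. The 4 input libraries were left out.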

Additional observations from a re-analysis of the deposited data

How the results depend on the processing

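With 1 library per group no library could be left out. No paired analysis was possible because each group held 1 library and no test was run. Of the alternatives below, centring on protein-coding genes, H3K27ac near promoter H3K9ac only, the subunit split by structure, both promoter alternatives, those of the comparison lists and the highest peak for other genes of mitochondrial translation were chosen after seeing the data. Of 60 recomputed summaries 45 stayed within 1.5 times the count or inside the interval of the median or share, and 15 moved. Presence in the lists and both marks together stayed within 1.5 times in every alternative run. The subunit difference went from -0.833 percentage points to -18.6 with peaks of at least 20 normalised tags, inside its wide interval, and to 0.16 by structure.

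The numbers of calls moved. For H3K9ac, 1 higher became 0 with the highest peak, with at least 10 tags in each list and with peaks of at least 20 normalised tags, 2 within 1 kb of the start and 25 without centring. There, 1 lower became 0 without centring, within 1 kb, with 10 tags and with 20 normalised tags. The highest peak also gave 1 lower, but it was MRPS27. For H3K27ac, 5 higher became 1 and 3 lower became 1 with the highest peak, and 1 and 7 without centring. The uncentred H3K9ac median was 1.01. MRPL45 (-0.29) and MRPL45P2 (0.08) changed sign with H3K27ac peaks of at least 8-fold over input, and ERAL1 H3K9ac (0.02) with the highest peak. YY1 letters fell from 23 promoters to 7 without the 50 bases after the start. Of single genes, 615 values stayed, 22 moved, 34 gained and 26 lost a call, and 3 changed sign. Depth limits the astromal H3K9ac list, where a median peak held 9 tags.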
